A study of Mus musculus with 12 samples.

Results

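Expression of 10 genes that restrain the cell cycle, carry the p53 response or serve as transcript markers of senescence was examined in sorted epithelial cells of the mouse small intestine. These genes were the INK4 inhibitors Cdkn2a, Cdkn2b and Cdkn2c, the CIP/KIP inhibitors Cdkn1a and Cdkn1b, Trp53 with its regulator Mdm2 and its target Ccng1, and the senescence markers Lmnb1 and Glb1. They were taken by symbol from a table of raw read counts for 34245 genes, and all 10 had a row. The set was chosen with earlier results of these data known. The study asked how old age changes the transcriptome of stem cells (ISC) and adult enterocytes (AE) of the intestine, and poly(A)+ RNA from 3 young and 3 aged animals gave 12 libraries, 3 for each cell type and age. Animals were male mice on the C57BL/6 background of about 8 months (young) or about 27 months (aged), and every mouse carried the Lgr5-EGFP-IRES-creERT2 knock-in (Lgr5-GFP), in which GFP marks cells with an active Lgr5 locus. ISC were live crypt cells with high GFP and were not selected against CD45 or CD31, whereas AE were live villus cells with high Epcam and without CD31 or CD45. Libraries are named by their codes, Y1, Y2 and Y3 for young and O1, O3 and O5 for aged mice.

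Cyclin-dependent kinase inhibitors hold cells before S phase. INK4 proteins bind Cdk4 and Cdk6, and CIP/KIP proteins bind cyclin-kinase complexes more broadly, so that the retinoblastoma protein keeps E2F factors inactive. p53, the product of Trp53, is controlled mostly through its stability: Mdm2 marks it for degradation and is itself transcribed from a p53-responsive promoter, as are Cdkn1a and Ccng1. In senescent cells Cdkn2a and Cdkn1a are commonly high, Lmnb1 is commonly low and the lysosomal enzyme encoded by Glb1 is commonly high. In the intestinal epithelium Cdkn1a and Cdkn1b are also known from cells that leave the cycle as they move from crypt to villus.

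The libraries held 11893817 to 26796461 counts, apart from young AE Y3 with 110794420. The code and the group name disagreed within 8 of the 12 titles given to the samples, so groups were read from the column codes of the table. Cell type markers followed those codes, with Lgr5 at 79.6 to 146 CPM (counts scaled to a common library size) in the 6 ISC libraries and 0.551 to 4.71 CPM in the 6 AE libraries, and the enterocyte gene Vil1 at 417 to 752 and 4268 to 6158 CPM. These markers do not bear on the age named by a code. CPM here are scaled by TMM, a factor that balances library composition. Young AE Y2 and young ISC Y3 stood apart in their markers. AE libraries also held markers of other villus cells, with 8 goblet cell genes summing to 25693 to 52230 CPM (1363 to 2128 in ISC), 8 enteroendocrine genes to 2595 to 6697 CPM (238 to 730 in ISC) and 10 T cell genes to 18.4 to 57.9 CPM (3.07 to 22.9 in ISC). The goblet sum was mostly Fcgbp and Zg16, with means of 23049 and 10505 CPM in young AE. By the test described below, 7 of the 8 goblet genes were higher in AE of aged mice and 1 was lower. Of the enteroendocrine genes 5 were higher and 2 lower, and 8 of 9 T cell genes tested were higher. In young mice 7, 6 and 1 genes of these lists were higher and 0 lower. The part of these other villus cells in the differences between AE and ISC below was not tested. In young AE Y2 the summed level of 18 proliferation genes was 614 CPM, against 129 and 206 in the other young AE and 147 to 153 in aged AE, with none of the 18 at 0 counts in any library. In young ISC Y3 the summed level of 20 enterocyte genes was 11640 CPM, against 4910 and 5216 in the other young ISC and 2373 to 6702 in aged ISC.

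Between the cell types, Cdkn2b, Cdkn1a and Mdm2 were higher in AE than in ISC at both ages, and Cdkn2c, Trp53, Lmnb1 and Glb1 were lower. Cdkn1a rose 8.40-fold in young and 12.01-fold in aged mice, while Trp53 fell to 0.194 and 0.149 of its ISC level. Between the ages, no member changed past the threshold in either cell type. Cdkn2a was at or under 3 counts in each of the 12 libraries and was not tested. In these bulk samples fewer cells expressing a gene and less RNA of it per cell cannot be told apart.

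**Figure D1:**
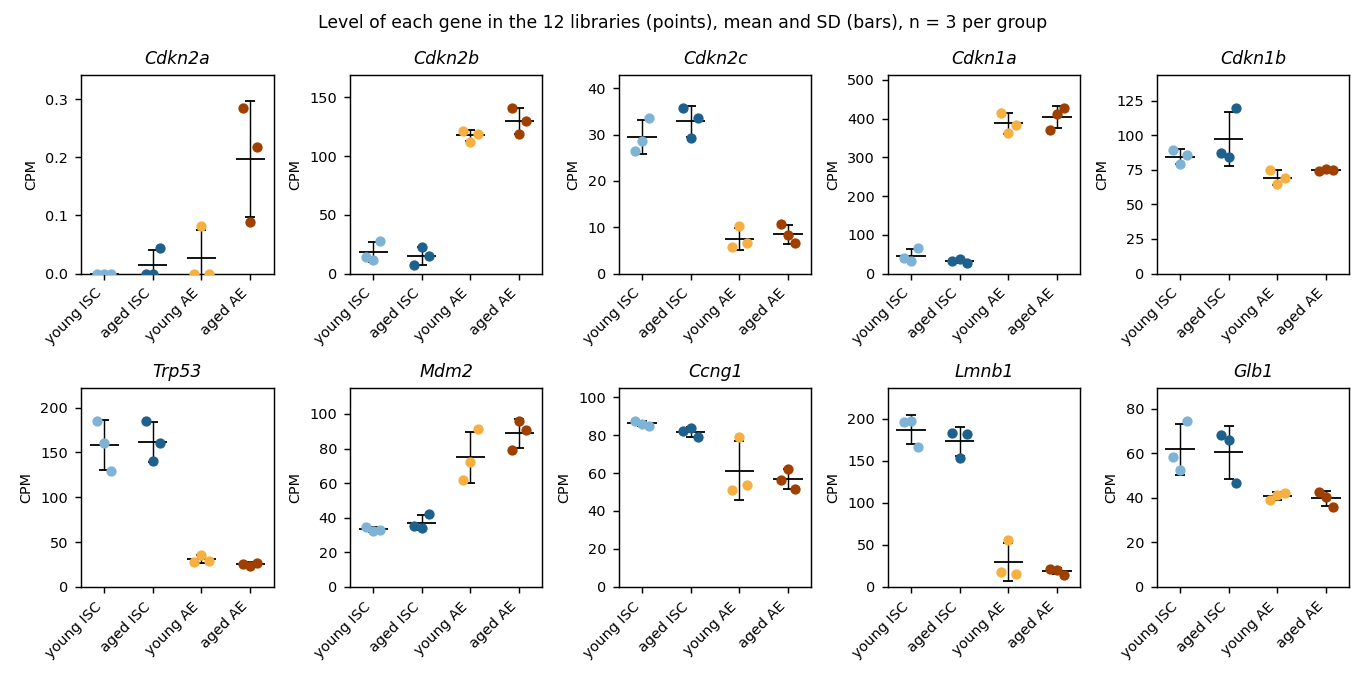
TMM-scaled CPM (linear axes from 0) of the 10 genes in the 12 libraries, with points for libraries and bars for the mean and SD of 3 libraries per group. Cdkn2b, Cdkn1a and Mdm2 sit higher in AE, Cdkn2c, Trp53 and Lmnb1 sit lower, and the Cdkn2a axis ends below 1 CPM.

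Of the 9 members tested, 7 differed between AE and ISC in young mice, 3 higher and 4 lower in AE (edgeR's quasi-likelihood test, Benjamini-Hochberg adjusted over all genes, threshold 0.05). Of all 16681 genes tested there, 53.1% passed the same threshold, 27.7% higher and 25.4% lower. In aged mice all 9 differed, 3 higher and 6 lower, where 64.1% of 15855 genes passed, 30.0% higher and 34.1% lower. The 7 called in young mice had the same direction in aged mice. The ranges of AE and ISC did not overlap for any of the 9 at either age, against 62.9% of all genes in young and 69.9% in aged mice. The median log2 difference of the 9 members was -0.49 in young and -0.59 in aged mice, beside 0.15 and -0.13 over all genes tested. With scaling to library totals, which moves the all-gene median by -0.70 and -0.78 on the log2 scale relative to TMM, 3 members were higher and 6 lower at both ages. That scaling moved the share of called genes that were higher in AE from 52.2% to 26.5% (young mice) and from 46.8% to 24.3% (aged mice).

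**Figure D2:**
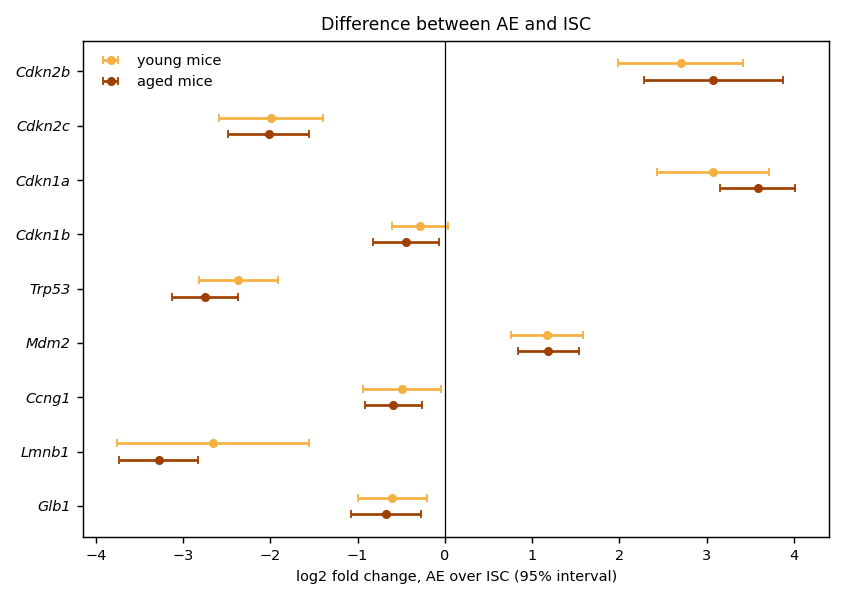
Log2 fold change of AE over ISC for the 9 tested genes, with 95% intervals from edgeR's quasi-likelihood fit, in young (upper mark of each pair) and aged mice (lower mark). Cdkn2b, Cdkn1a and Mdm2 lie to the right of 0 at both ages, and the interval of Cdkn1b reaches 0.04 in young mice.

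The INK4 genes differed in direction between the cell types. Cdkn2b, which encodes p15Ink4b, was measured at 14.5, 11.9 and 27.8 CPM in young ISC (Y1, Y2, Y3), 7.01, 22.3 and 14.9 in aged ISC (O1, O3, O5), 121, 112 and 119 in young AE and 141, 119 and 130 in aged AE. Each AE library was thus above each ISC library, and the ISC libraries spread more widely than the AE libraries. The log2 difference was 2.70 (SE 0.31, adjusted p = 0.000365) in young mice and 3.07 (SE 0.36, adjusted p = 4.26e-05) in aged mice. Within ISC, Y3 and O3 were highest and O1 lowest for Cdkn2b, and the same libraries were highest and lowest for summed enterocyte markers, with 11640, 6702 and 2373 CPM. The part of enterocyte RNA in the Cdkn2b level of ISC was not tested.

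Cdkn2c, encoding p18Ink4c (chr4:109660876-109667189, minus strand), ran the other way. It was at 26.5, 28.6 and 33.6 CPM in young ISC, 35.8, 29.2 and 33.7 in aged ISC, 5.64, 10.2 and 6.57 in young AE and 10.7, 8.33 and 6.54 in aged AE. No AE library reached the lowest ISC library, and Y2 was the highest of the young AE. Cdkn2c fell by 1.99 on the log2 scale from ISC to AE in young mice (SE 0.26, adjusted p = 0.000552) and by 2.02 in aged mice (SE 0.21, adjusted p = 1.86e-05). Counts of Cdkn2b per count of Cdkn2c, which need no scaling between libraries, ran from 0.196 to 0.826 in the 6 ISC and from 11.0 to 21.5 in the 6 AE libraries.

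Cdkn2a encodes both p16Ink4a and p19Arf from separate first exons, and its single row cannot tell them apart. Its counts were 0, 0 and 0 in young ISC, 0, 0 and 1 in aged ISC, 0, 1 and 0 in young AE and 3, 1 and 2 in aged AE. A gene with 0 counts could have up to 3 counts, which is 0.0360 CPM in the deepest and 0.327 CPM in the shallowest library after scaling, and these limits cover counting error only. Cdkn2a was therefore not above this limit in any library, and no fold change is given. Its aged AE libraries were at 0.0896 to 0.285 CPM and its young AE libraries at 0 to 0.0827 CPM. The nearest values of these 2 groups, in young Y2 and aged O3, were 1 count each. On GRCm38 it lies at chr4:89274471-89294653 on the minus strand, 11635 bases from Cdkn2b at chr4:89306289-89311032, whose AE level was 112 to 141 CPM.

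Among the CIP/KIP genes, Cdkn1a showed the largest rise of the 9 members at both ages. Cdkn1a, which encodes p21 (chr17:29090979-29100722, plus strand), was at 40.1, 33.0 and 65.2 CPM in young ISC, 32.4, 36.5 and 27.2 in aged ISC, 415, 363 and 384 in young AE and 372, 412 and 428 in aged AE. The AE libraries lay close together and far above the ISC libraries, of which Y3 was highest. Its log2 difference was 3.07 (SE 0.28, adjusted p = 0.000170) in young mice and 3.59 (SE 0.19, adjusted p = 5.51e-07) in aged mice. Cdkn1a shares 273 exon bases with a gene on the opposite strand, AC167363.2, and whether the counting used strand is not given in the sources used here. Cdkn1b, encoding p27 (chr6:134920401-134925513, plus strand), was at 89.2, 79.1 and 85.5 CPM in young ISC, 87.2, 84.6 and 120 in aged ISC, 74.8, 64.6 and 68.8 in young AE and 74.5, 75.3 and 75.2 in aged AE. All AE libraries were below all ISC libraries, but by little.

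The log2 difference of Cdkn1b between AE and ISC was -0.29 (95% interval -0.61 to 0.04, adjusted p = 0.119) in young mice and did not pass. In aged mice it was -0.45 (SE 0.17, adjusted p = 0.0410), and it did not pass when aged ISC O5, the library with 120 CPM, was left out (-0.28, adjusted p = 0.0964), nor without any single aged AE library (adjusted p = 0.0842 to 0.102). Counts of Cdkn1a per count of Cdkn1b were 0.227 to 0.762 in ISC and 4.99 to 5.69 in AE. The lack of overlap follows from the opposite directions of the levels above. Per kilobase of merged exon, Cdkn1a was at 13.0 CPM per kb in young ISC and 109 in young AE, and Cdkn1b was at 18.6 and 15.2.

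Trp53 and the genes downstream of it did not move together. Trp53 (chr11:69580359-69591873, plus strand) was at 185, 160 and 129 CPM in young ISC, 185, 140 and 160 in aged ISC, 27.9, 35.8 and 28.4 in young AE and 26.1, 22.8 and 27.03 in aged AE. Every AE library was far below the lowest ISC library. Its log2 difference was -2.37 (SE 0.20, adjusted p = 0.000137) in young mice and -2.75 (SE 0.17, adjusted p = 9.39e-07) in aged mice. Mdm2, the ubiquitin ligase that limits p53 (chr10:117688875-117710758, minus strand), was at 34.8, 32.1 and 33.2 CPM in young ISC, 35.0, 34.3 and 42.3 in aged ISC, 62.0, 72.2 and 91.1 in young AE and 79.4, 95.9 and 90.8 in aged AE. AE libraries were above ISC libraries throughout, with a wider spread.

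Mdm2 rose by 1.17 on the log2 scale in AE of young mice (SE 0.18, adjusted p = 0.00103) and by 1.18 in AE of aged mice (SE 0.16, adjusted p = 0.000108). With library totals its difference was 0.46 (adjusted p = 0.0450) and 0.39 (adjusted p = 0.0442), the smallest of the 3 rises. The ratio of raw counts does not depend on that scaling, and it was 0.188 to 0.264 Mdm2 counts per Trp53 count in ISC and 2.02 to 4.22 in AE. Cdkn1a counts per Trp53 count were 0.170 to 0.503 in ISC and 10.1 to 18.1 in AE. Neither ratio overlapped between the cell types. That follows from the levels above, as Mdm2 and Cdkn1a were higher and Trp53 lower in every AE library than in every ISC library.

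Ccng1, encoding cyclin G1 (chr11:40748552-40755311, minus strand), is a direct p53 target that differed less. It was at 87.4, 86.1 and 85.0 CPM in young ISC, 81.9, 84.0 and 78.9 in aged ISC, 51.0, 79.1 and 53.7 in young AE and 56.5, 62.1 and 51.7 in aged AE. AE libraries were lower than the ISC libraries of the same age, and young AE Y2, at 79.1 CPM, was slightly above aged ISC O5 at 78.9 CPM. The log2 difference was -0.49 (95% interval -0.94 to -0.05, adjusted p = 0.0611) in young mice and -0.59 (SE 0.15, adjusted p = 0.00520) in aged mice. In young mice it passed with the library number as a replicate block (-0.52, adjusted p = 0.0333), which brought the members called to 8, and without Y2 (-0.81, adjusted p = 0.00494). Without young AE Y1 it was nearer to 0, at -0.41. Over the single libraries left out, its adjusted p reached 0.158 (edgeR's quasi-likelihood test). Counts of Ccng1 per count of Trp53 were 0.444 to 0.657 in ISC and 1.83 to 2.73 in AE. Ccng1 itself was lower in AE, and Trp53 was lower by more.

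Cdkn1a, Mdm2 and Ccng1 are shown with the 250 bases before their annotated starts because they are p53 targets that differed in direction between AE and ISC. Capitals mark the decamer of a p53 half-site, which reads purines, then C, a pair of A or T bases, G and pyrimidines. The decamer is its own reverse complement in form, so both strands were searched at once. Sequences are from RefSeq on GRCm38.p6, run 5′ to 3′ along the gene's strand, and end at the base before the start. Of the members 9 had an entry, with 12 start sites. The decamer was found for 4 of these members, Cdkn1a, Mdm2, Ccng1 and Trp53, and 8 of the 12 windows held none. Of 32851 promoter windows of the same length, 7.13% held it. Cdkn1a, Mdm2 and Ccng1 were already known as p53 targets, so this share is background and not a test.
Cdkn1a, first start (chr17:29090729-29090978, + strand): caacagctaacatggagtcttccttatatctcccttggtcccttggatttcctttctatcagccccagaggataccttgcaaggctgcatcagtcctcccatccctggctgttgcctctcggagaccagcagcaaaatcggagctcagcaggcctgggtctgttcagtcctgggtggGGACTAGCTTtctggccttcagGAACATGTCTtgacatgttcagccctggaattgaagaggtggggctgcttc
Mdm2 (chr10:117710759-117711008, - strand): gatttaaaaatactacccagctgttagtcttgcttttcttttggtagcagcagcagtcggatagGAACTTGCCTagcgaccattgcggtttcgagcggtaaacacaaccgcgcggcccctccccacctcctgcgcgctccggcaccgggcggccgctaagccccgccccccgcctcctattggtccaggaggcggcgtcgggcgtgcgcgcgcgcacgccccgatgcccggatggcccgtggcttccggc
Ccng1 (chr11:40755287-40755536, - strand): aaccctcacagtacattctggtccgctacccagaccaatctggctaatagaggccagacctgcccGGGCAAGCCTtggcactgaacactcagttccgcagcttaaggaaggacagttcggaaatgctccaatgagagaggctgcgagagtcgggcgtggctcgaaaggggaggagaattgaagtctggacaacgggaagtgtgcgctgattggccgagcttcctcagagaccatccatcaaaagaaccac
In Cdkn1a the capitals lie 73 to 64 and 51 to 42 bases before the first of its annotated starts, and the window before the other start, 2790 bases downstream, had none. In Mdm2 they lie 186 to 177 and in Ccng1 185 to 176 bases before the start. No other part of these genes was searched, so promoters elsewhere in them are not covered. Only exact matches to the pattern were marked, so stretches that differ from it at a base, also next to a marked decamer, stay in lower case. A match to these letters is a description of the sequence and was not tested for binding.

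The transcript markers of senescence were both lower in AE. Lmnb1, which encodes lamin B1 of the nuclear lamina, was at 197, 197 and 167 CPM in young ISC, 184, 153 and 183 in aged ISC, 17.6, 56.3 and 15.7 in young AE and 21.6, 20.1 and 14.4 in aged AE. Its AE libraries were all below its ISC libraries, and young AE Y2 was 56.3 where the other 5 AE libraries did not exceed 21.6. Lmnb1 fell by 2.66 on the log2 scale in young mice (SE 0.48, adjusted p = 0.00223) and fell by 3.28 in aged mice (SE 0.20, adjusted p = 9.46e-07). Without Y2 the young difference was -3.59. Counts of Lmnb1 per count of Cdkn1a were 2.56 to 6.72 in ISC and 0.0336 to 0.155 in AE. The 18 proliferation genes summed to 2101 to 2742 CPM in ISC and 129 to 614 CPM in AE. All 18 were called lower in AE at both ages, beside 25.4% (young) and 34.1% (aged) of all genes. Their median log2 differences were -3.09 and -4.41. The part of cycling cells in the lower levels of Lmnb1, and of genes in the pathway lists below, was not tested.

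Glb1, which encodes the lysosomal beta-galactosidase whose activity is stained in senescent cells (chr9:114401076-114474898, plus strand), was at 58.3, 52.5 and 74.5 CPM in young ISC, 68.5, 65.8 and 46.9 in aged ISC, 38.8, 41.4 and 42.1 in young AE and 42.7, 40.6 and 36.0 in aged AE. The AE libraries were lower, and O5 was the lowest of the ISC. The log2 difference was -0.60 (SE 0.17, adjusted p = 0.0187) in young mice and -0.67 (SE 0.18, adjusted p = 0.00825) in aged mice. The young difference did not pass without young ISC Y3, the library with 74.5 CPM (-0.44, adjusted p = 0.0733). Glb1 shares 165 exon bases with Tmppe on the same strand, so its counts could include reads of that gene.

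Levels of different genes were compared per kilobase of merged exon. In young ISC the order of mean levels in CPM per kb was Lmnb1 (63.1 ± 5.88, SD, n = 3), Trp53 (39.1 ± 6.89), Ccng1 (24.5 ± 0.353), Glb1 (20.5 ± 3.79) and Cdkn1b (18.6 ± 1.12), followed by Cdkn2b (13.0 ± 6.13), Cdkn1a (13.0 ± 4.76), Cdkn2c (11.0 ± 1.37) and Mdm2 (6.56 ± 0.269). Cdkn2b, Cdkn1a and Cdkn2c lay within the spread of their libraries. In young AE the order began with Cdkn1a (109 ± 7.36) and Cdkn2b (84.5 ± 3.34) and ended with Trp53 (7.59 ± 1.10) and Cdkn2c (2.78 ± 0.890). Ccng1 (17.5 ± 4.41), Cdkn1b (15.2 ± 1.13), Mdm2 (14.8 ± 2.91), Glb1 (13.6 ± 0.570) and Lmnb1 (10.1 ± 7.74) lay between, and their ranges over libraries overlapped in part. In young AE the order of Lmnb1 and Trp53 rested on Y2, and without Y2 their means were 5.62 and 6.95 CPM per kb (n = 2). In aged ISC Mdm2 (7.32 ± 0.867) and Cdkn1a (9.01 ± 1.31) were lowest, and in aged AE Cdkn1a (114 ± 8.19) and Cdkn2b (93.5 ± 7.99) again led.

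**Figure D3:**
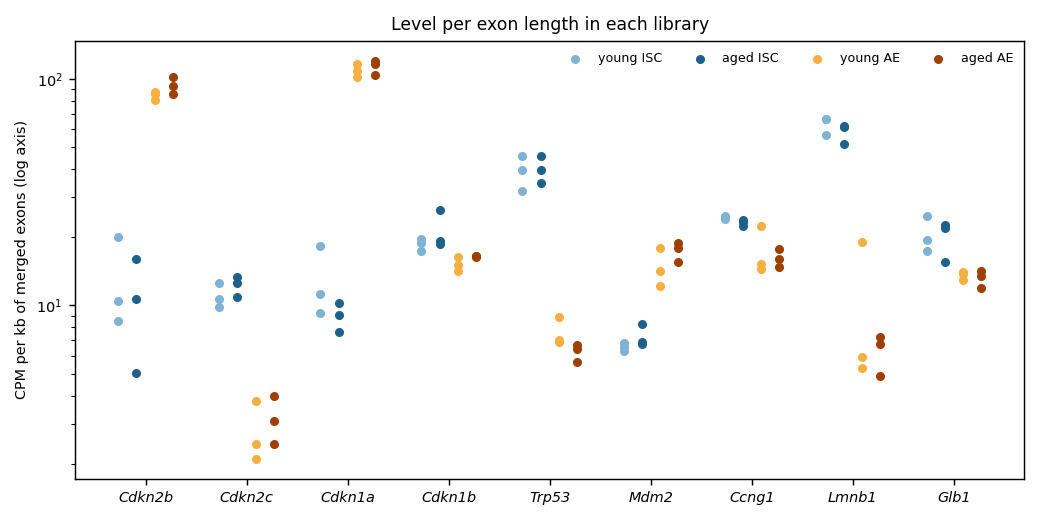
Level per exon length (CPM per kb of merged exons, log axis) of the 9 genes above the count limit, with a point for each of the 12 libraries. Cdkn1a and Cdkn2b lead in AE at means of 109 and 84.5 CPM per kb in young mice, and Lmnb1 and Trp53 lead in ISC at 63.1 and 39.1.

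With age, 0 of the 9 tested members passed the threshold in ISC and 0 of 9 in AE, where edgeR's quasi-likelihood test called 0% of 15552 and 0% of 16265 genes. No member had an unadjusted P under 0.05 in either cell type, against 695 genes (4.47%) in ISC and 809 (4.97%) in AE. DESeq2 called 58 genes in ISC and 18 in AE, with 0 members among them. The 95% interval of the log2 difference lay within a 2-fold change either way for 7 of 9 members in ISC and 8 of 9 in AE, and each interval included 0. The intervals are not adjusted for the number of genes tested, so even a difference beyond them could fail to pass with 3 libraries a group. Over all genes the lowest adjusted p was 0.177 in ISC and 0.220 in AE (edgeR's quasi-likelihood test).

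**Figure D4:**
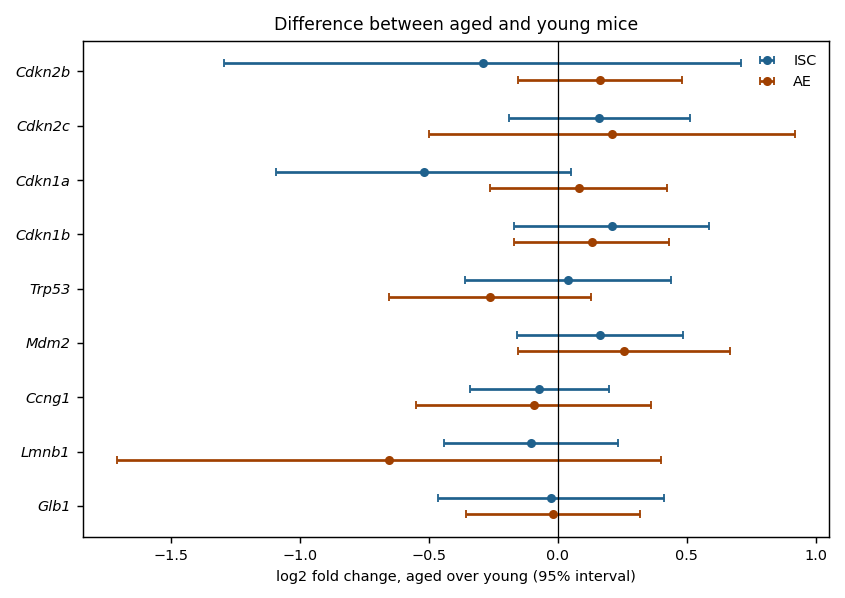
Log2 fold change of aged over young mice for the 9 tested genes, with 95% intervals from edgeR's quasi-likelihood fit, in ISC (upper mark of each pair) and AE (lower mark). Every interval crosses 0, and those of Cdkn2b and Cdkn1a in ISC and of Lmnb1 in AE reach below -1.

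Cdkn1a in ISC came nearest to a difference, at -0.52 (95% interval -1.09 to 0.05, unadjusted P = 0.0696, adjusted p = 1.00, edgeR's quasi-likelihood test). Its aged ISC libraries, at 27.2 to 36.5 CPM, overlapped the young ones at 33.0 to 65.2. Without young ISC Y3 the difference was -0.18, and without young ISC Y2 it was -0.71. Of these, Y3 is the library with the highest summed enterocyte markers. Cdkn2b in ISC was at -0.29 (95% interval -1.29 to 0.71), at 0.16 without Y3 and at -0.72 without aged ISC O3. All 20 enterocyte genes had values below 0 for aged against young ISC, with a median of -0.99 on the log2 scale beside 0.01 over all genes, 9 with an unadjusted P under 0.05, 7 lower without overlap and 0 passing after adjustment. Their summed level was 4910 to 11640 CPM in young and 2373 to 6702 CPM in aged ISC. The 10 T cell genes had a median of -3.33, with 5 lower without overlap and sums of 9.19 to 22.9 CPM in young and 3.07 to 4.91 CPM in aged ISC, where 2 to 7 of the 10 were at 0 counts. The part of enterocyte and T cell RNA in these values was not tested. The remaining 7 members in ISC lay between -0.10 and 0.21, with Cdkn1b at 0.21 (95% interval -0.17 to 0.59), Trp53 at 0.04 (-0.36 to 0.44) and Mdm2 at 0.16 (-0.16 to 0.48). For Ccng1 the aged ISC libraries were all below the young ones, with a log2 difference of -0.07 (95% interval -0.34 to 0.20), and 4.41% of all genes were lower without overlap.

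In AE the lowest age difference was that of Lmnb1, at -0.65 (95% interval -1.71 to 0.40, unadjusted P = 0.194, adjusted p = 0.833, edgeR's quasi-likelihood test). Its sign rested on young AE Y2, without which the difference was 0.20, while without young AE Y3 it was -0.96. Ccng1 in AE was at -0.09, at 0.14 without Y2 and at -0.21 without young AE Y1. Y2 also had the highest proliferation markers, with Mki67 at 103 CPM against 11.7 to 35.2 in the other AE libraries, and the part of cycling cells in these values was not tested. Trp53 was lower in all 3 aged AE libraries than in all young ones, at -0.26 (95% interval -0.65 to 0.13, unadjusted P = 0.165), where 6.98% of all genes were lower without overlap. Mdm2 was at 0.26 (-0.16 to 0.67), Cdkn2c at 0.21 (-0.50 to 0.92), Cdkn2b at 0.16 (-0.15 to 0.48), Cdkn1a at 0.08 (-0.26 to 0.42) and Glb1 at -0.02 (-0.35 to 0.32).

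**Figure D5:**
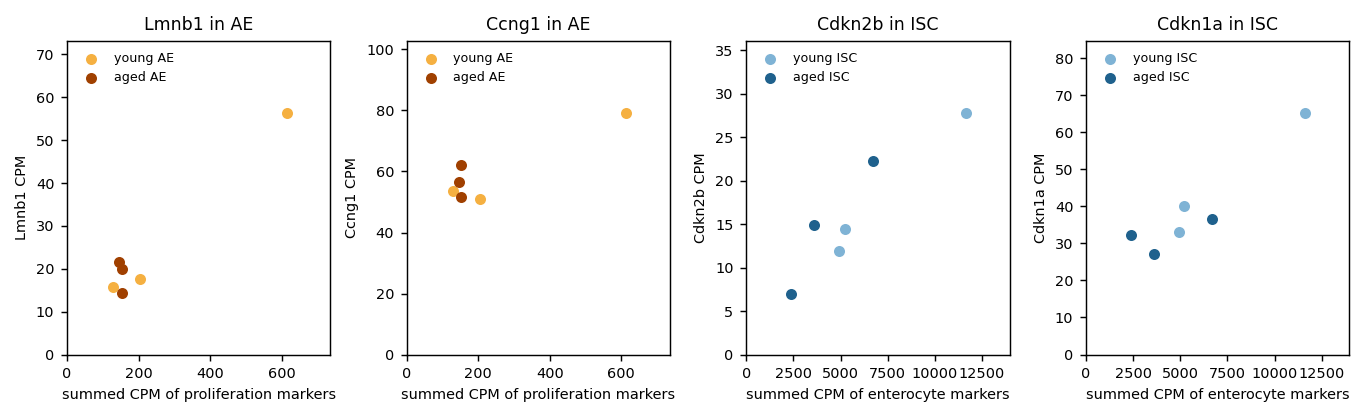
CPM of Lmnb1 and Ccng1 in the 6 AE libraries against the summed CPM of 18 proliferation genes, and CPM of Cdkn2b and Cdkn1a in the 6 ISC libraries against the summed CPM of 20 enterocyte genes (all axes linear from 0). Young AE Y2 (614 CPM of proliferation genes) and young ISC Y3 (11640 CPM of enterocyte genes) lie apart and are highest for the gene plotted.

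The age difference was also compared between the cell types with an interaction term over the 12 libraries. None of the 9 members passed, where the test called 0.00575% of 17377 genes, and none had an unadjusted P under 0.05, against 757 genes (4.36%). DESeq2 called 43 genes and no member. The largest member value was 0.59 for Cdkn1a (95% interval -0.09 to 1.26, unadjusted P = 0.0818, edgeR's quasi-likelihood test), which was 0.25 without young ISC Y3 and 0.78 without young ISC Y2. Lmnb1 followed at -0.55 (95% interval -1.70 to 0.60), which was 0.26 without young AE Y2 and -0.93 without young AE Y3.

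Other genes of the same pathways, in lists that share no gene with the members, were compared between AE and ISC in the same fit. The counts of each list are to be read against the 53.1% of all genes called in young and 64.1% in aged mice. Of 24 RB and E2F cell cycle genes 1 was higher and 16 were lower in AE of young mice, against 2 and 18 in AE of aged mice. Rb1, encoding the retinoblastoma protein bound by E2F factors, rose from 24.4 to 88.1 CPM in young (log2 difference 1.85, adjusted p = 0.000838) and from 24.8 to 110 CPM in aged mice (2.09). E2f1, an activator of S phase genes, fell from 32.6 to 2.52 CPM in young mice (-3.79) and from 30.9 to 1.01 CPM in aged mice (-4.97). Cdk6, the kinase that INK4 proteins bind, fell from 127 to 9.52 CPM in young mice (-3.75), and E2f7 from 15.0 to 0.493 CPM in aged mice (-4.99). The list's median log2 difference was -1.86 in young and -2.35 in aged mice, beside 0.15 and -0.13 over all genes. Rbl2, called higher in aged mice only at 0.51, was at -0.28 with library totals.

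Of all genes tested, 27.7% were higher and 25.4% lower in AE of young mice, and 30.0% and 34.1% of aged mice, which is the background for the p53 target genes. Of 31 tested, 11 were higher and 8 lower in AE of young mice, against 14 and 10 in aged mice, with medians of 0.23 and -0.02. With library totals 6 were higher and 15 lower in young mice, against 5 and 16 in aged mice. Of all genes called with that scaling, 26.5% were higher in AE of young and 24.3% of aged mice. Fas, the death receptor, rose from 2.79 to 42.2 CPM in young mice (3.91, adjusted p = 0.000313) and from 2.01 to 38.5 CPM in aged mice (4.23). Pmaip1, which encodes the BH3-only protein Noxa, rose from 14.3 to 56.8 CPM in young mice (1.99) and from 13.1 to 73.3 CPM in aged mice (2.41). Gtse1, a cell cycle gene that also restrains p53, fell from 23.3 to 1.24 CPM in aged mice (-4.27). Eda2r had 52 to 169 counts in the ISC and 0 to 3 in the AE libraries, and Phlda3 had 35 to 127 and 0 to 5.

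Of the p53 regulators and partners, 2 of 16 tested were higher and 7 lower in AE of young mice, against 2 and 8 of 17 in aged mice (25.4% and 34.1% of all genes were lower). Chek1, a checkpoint kinase, fell from 24.6 to 2.15 CPM in young mice (-3.62) and from 21.0 to 0.481 CPM in aged mice (-5.49). Atr, the kinase that activates it, fell from 37.5 to 5.85 CPM in young mice (-2.71), and Chek2 from 32.3 to 3.38 CPM in aged mice (-3.31). Hipk2 was called higher at 0.93 and 1.15, and Ppp1r13b at 0.65 and 0.81, but with library totals neither passed, at 0.22 and 0.35 for Hipk2 and -0.06 and 0.03 for Ppp1r13b. Outside the members there were 3 further CDK inhibitor genes. Cdkn3 fell by 1.92 in young and fell by 3.43 in aged mice on the log2 scale. Cdkn1c was called higher at 1.71 and 0.90, and with library totals its values of 1.02 and 0.14 did not pass. Cdkn2d did not pass at 0.11 and -0.15, and with library totals it was at -0.60 in young mice, where it did not pass, and at -0.93 in aged mice, where it did.

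Nuclear lamina and chromatin genes of senescence were mostly lower in AE, with 1 of 16 higher and 13 lower in AE at both ages and medians of -1.79 and -2.07. Hmga2, a chromatin protein of immature and cycling cells, fell by 4.07 in young and fell by 4.63 in aged mice on the log2 scale, and Hmga1 fell by 3.50 and fell by 4.20. Lmna, which encodes the A-type lamins, was called higher at 0.83 in young and 0.67 in aged mice, but with library totals it was at 0.14 and -0.12 and did not pass. Lysosomal glycosidases and Glb1 partners were mostly higher in AE with TMM, with 9 of 14 higher and 2 lower in young mice and 8 higher and 3 lower in aged mice. With library totals 4 were higher and 4 lower in young mice, against 4 and 5 in aged mice. Beside this, 26.5% and 24.3% of all genes called with that scaling were higher. Neu1, the sialidase held in a complex with the Glb1 product, rose by 1.96 and 2.58 on the log2 scale in young and aged mice. Gusb fell by 1.33 in young and fell by 1.66 in aged mice, and Gaa fell by 0.91 and fell by 0.95.

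Of 28 genes of the senescence-associated secretory list, 15 could be tested in young and 12 in aged mice. In both comparisons 6 were higher and 2 lower in AE, a share called close to the 53.1% and 64.1% of all genes, and several of them had few counts. Igfbp4, an insulin-like growth factor binding protein, fell from 197 to 11.9 CPM in young mice (-4.07) and from 191 to 14.4 CPM in aged mice (-3.80). Plaur, the urokinase receptor, was at 3 to 5 counts in young ISC and 34 to 286 in young AE, and at 1 to 8 and 31 to 43 counts in aged mice. Cxcl2 had 3, 4 and 14 counts in young AE (0.168 to 0.331 CPM) and 0 in the other 9 libraries, where 3 counts would be up to 0.327 CPM. Igfbp5 was at 3.19, 1.90 and 0.216 CPM in young AE and up to 0.436 CPM in aged AE and 0.168 CPM in ISC, so that its young and aged AE libraries overlapped. Tnf had 12 to 55 counts in ISC and at most 4 in AE. With age, 0 genes of these 7 lists passed in ISC or AE by edgeR's quasi-likelihood test. DESeq2 called 2 genes of the secretory list, the chemokine Ccl5 lower in aged ISC (-3.10, adjusted p = 0.0474) and the growth factor Areg higher in aged AE (1.13, adjusted p = 0.0284). Ccl5 reads per ISC library ran from 12 to 62 (young) and from 2 to 10 (aged). In edgeR's fit of age in ISC, the 10 T cell genes had a median log2 difference of -3.33, and ISC were not selected against CD45. The part of T cell RNA in the Ccl5 difference was not tested.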

How the data were processed

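Poly(A)+ RNA of sorted ISC and AE was sequenced, and the authors trimmed reads with Trim Galore (version 0.4.4), mapped them to GRCm38 with HISAT2 (version 2.1.0) and quantified uniquely mapped reads in SeqMonk over exons, with the transcripts of a gene merged. The deposited counts are raw counts per gene. The annotation release and the strand setting of the counting are not given in the sources used here. A deposited table of 49 genes called by the authors holds their log2 values and −log10 adjusted p-values (FDR) and was not used.

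Genes whose counts summed to 10 or more in the libraries compared were tested with edgeR 4.0.16 (R 4.3.3) by the quasi-likelihood test with TMM scaling, Benjamini-Hochberg adjustment over all genes and a threshold of 0.05. SE was the log2 fold change over the root of the F statistic. Each library was taken as a replicate, so p-values measure the spread between libraries. DESeq2 1.42.0 and other scalings, filters and left-out libraries were alternatives. Merged exon lengths came from GENCODE annotation on GRCm38. The scripts were tested on simulated counts. ISC and AE libraries with the same code deviated together (correlation of deviations from group means 0.202 to 0.423 in 6 of 6 pairs, over 12642 genes), so an alternative fit took the code number as a replicate block. Gene members and lists were chosen with earlier results of these data known. The text names all members, and from each list the 2 largest rises and 2 largest falls among called genes in each comparison. Cdkn2d was added after its values were seen. Some genes that this rule would name are not reported here. Reads carry no molecular identifiers.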

Additional observations from a re-analysis of the deposited data

How the results depend on the processing

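The number of members called was within 1.5 times its reported value in all alternatives. It stayed at 0 for both age comparisons and for their difference, and for AE against ISC it was 6 to 9 (young) and 8 to 9 (aged), or 6 to 8 and 8 to 9 with single libraries left out. With the replicate block it was 8 in young and 9 in aged mice, and Ccng1 in young mice was the only member call that the block changed. With a library left out the sign changed in 28 of 324 member values, all of them age differences or interactions that had not passed, and with the other alternatives in 14 of 378, again none between AE and ISC. In 4 of the 28 the value moved by at least its SE, and over the left-out libraries these ranged from -0.72 to 0.16 for Cdkn2b in ISC with age (highest without young Y3), from -0.21 to 0.14 for Ccng1 and -0.96 to 0.20 for Lmnb1 in AE with age, and from -0.93 to 0.26 for Lmnb1 in the interaction (highest without young AE Y2). Leaving out young AE Y2 and young ISC Y3 together and scaling to library totals were chosen after the data were seen. The former left 7 members called in young mice, with Glb1 lost (-0.50, adjusted p = 0.121) and Ccng1 gained (-0.78, adjusted p = 0.0215), and the interaction of Ccng1 was 0.22 and that of Lmnb1 0.37. In aged mice Cdkn1b did not pass with DESeq2 (-0.36, adjusted p = 0.0900) or RLE scaling (-0.36, adjusted p = 0.0846). In young mice Cdkn1b passed with upper-quartile scaling (-0.41, adjusted p = 0.0402) and library totals (-0.99). Without a filter on low counts edgeR called 1 gene by age in ISC and 2 in AE, and with the block the interaction called 21 genes.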

Other observations

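Within groups, the libraries ordered some members together. Over the 12 libraries, with group means removed from log2 CPM and 9394 genes of at least 10 CPM compared, the genes most like Lmnb1 were Prps2 (r = 0.987), which makes a nucleotide precursor, and Chtf18 (r = 0.978), a replication factor. Those most like Cdkn2b were Tubal3 (r = 0.984) and Exoc3l4 (r = 0.980), and those most like Cdkn1a were Tmem106a (r = 0.948) and Cst6 (r = 0.915). Mdm2 was nearest to Trio (r = 0.970) and Trp53 to Vars2 (r = 0.948). Among members the closest pair was Ccng1 and Lmnb1 (r = 0.924). These values describe 12 libraries in which young AE Y2 and young ISC Y3 stand apart, and points share library depth and cell composition. Matches outside the members were picked as the highest among 9394 genes, a choice that by itself favours a high r.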
